A study of Mus musculus with 29 samples.

Results

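The genes of the mitochondrial ribosomal proteins were taken from the deposited count table by name: every row that begins with Mrps or Mrpl and a number, with pseudogene names left out. The rule found 77 of 24448 gene rows, of which 29 carry a small subunit name (Mrps) and 48 a large subunit name (Mrpl). All 77 were placed in the GENCODE M21 annotation of the mouse assembly GRCm38, on 17 chromosomes. They are nuclear genes. No measured value enters the rule, although the list was chosen with earlier results of these data known.

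The mitochondrial ribosome translates the few proteins that the mitochondrial genome encodes, all of them subunits of the respiratory chain complexes. Its rRNAs come from the mitochondrial genome, whereas its proteins are encoded in the nucleus, made in the cytosol and imported. The small subunit holds the mRNA and its decoding site, and the large subunit joins the amino acids and releases the new chain into the inner membrane. An oocyte passes a large store of mitochondria and of maternal mRNA to the embryo, and a mouse embryo at the 2-cell stage carries both maternal transcripts and its first own ones.

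RNA was measured in 29 libraries of mice labelled with the strain BDF1, each made by Smart-seq2 from 1 embryo or 1 cell. The 9 control embryos and the 8 hydroxyurea (HU) embryos were all made by nuclear transfer: a cumulus cell nucleus was injected into an enucleated oocyte, which was activated for 6 h with 10 mM strontium in the presence of cytochalasin B (CB in the labels) and EGTA. HU, an inhibitor of ribonucleotide reductase, was given at 10 uM to the HU group and withdrawn after 24 h, and embryos of both groups were collected at the 2-cell stage, 28 h after activation. The third group was 12 single cumulus cells, the somatic cells around the oocyte that supply donor nuclei, with no treatment label. Every embryo of both groups therefore shares the oocyte cytoplasm, the nuclear transfer and the activation, and there is no fertilised embryo for comparison. For the cumulus cells the labels name neither animal nor culture, so the 12 cells count as 1 sample and no test was run on them.

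Gene counts per library ranged from 1801261 to 3472116 in control embryos, from 2442541 to 3757492 in HU embryos and from 317195 to 4051494 in cumulus cells. Rn45s, the precursor of the cytosolic rRNAs, took 16.2 to 32.5% of gene counts in control embryos, 15.2 to 29.0% in HU embryos and 49.3 to 86.6% in cumulus cells. As a check of the labels, 10 oocyte and embryo markers summed to a median of 4259 CPM (counts scaled to a common total of gene counts per library) in control embryos, 3294 CPM in HU embryos and 0 CPM in cumulus cells, where 8 of the 10 were at 0. The 16 cumulus and granulosa markers summed to a median of 104 CPM in control embryos, 107.6 CPM in HU embryos and 4080 CPM in cumulus cells. Of these 16, the number at 0 was 1 in control embryos, 2 in HU embryos and 1 in cumulus cells. Cumulus cells 2, 10 and 11 stood apart. Cell 2 had counts in 36 of the 77 members, with 86.6% of its gene counts in Rn45s. Cell 11 had counts in 48 members, with 71.2% in Rn45s. Cell 10 had 317195 gene counts and no count in any mitochondrially encoded gene, which allows a share of up to 0.000946% (3 counts). Intervals and floors given here cover counting error only.

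The mitoribosomal genes were expressed in every embryo. A count was found for 71 of the 77 members in all 17 embryos, and for 18 of 77 in all 12 cumulus cells. Over the 19253 genes with a count, these numbers were 9759 and 914. Together the members took 0.258 to 0.349% of gene counts in control embryos, 0.237 to 0.394% in HU embryos and 0.0372 to 0.570% in single cumulus cells. Those ranges overlap, and the lowest value belonged to cumulus cell 2 and the highest to cumulus cell 10. A library of a whole embryo sums its cells, so fewer cells with a transcript and less of it per cell cannot be told apart.

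Levels of the members, in FPKM, which divides by gene length, spread widely in embryos although the proteins serve in a single complex. In control embryos the mean FPKM ran from 1.99 for Mrpl1, a protein of the large subunit stalk through which tRNAs leave, to 141 for Mrpl18, with a median of 25.8 FPKM. The median was 26.3 FPKM over small subunit names and 25.3 FPKM over large subunit names. The upper quartile of the members was 4.51 times the lower in control embryos and 3.81 times in HU embryos, against 10.8 and 10.4 times over the 12356 genes with more than 3 counts in embryos and cells. The order of the levels was nearly the same in both embryo groups, with a Spearman rho of 0.965 between mean FPKM values over the 77 members, a description across genes that share libraries. Over all 12356 genes that rho was 0.980.

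The most abundant large subunit members in control embryos were Mrpl18 at 141 ± 33.6 FPKM, Mrpl13 at 108.5 ± 42.7 FPKM, Mrpl10 at 102.2 ± 22.8 FPKM, Mrpl12 at 102.2 ± 48.2 FPKM and Mrpl40 at 84.7 ± 19.0 FPKM (SD, n = 9). Mrpl10 and Mrpl12 are counterparts of the bacterial stalk proteins that recruit translation factors, and Mrpl18 and Mrpl13 also have bacterial counterparts, whereas Mrpl40 has none. Neighbours in this order differed by less than their SDs. The least abundant were Mrpl1 at 1.99 ± 1.47 FPKM, Mrpl15 at 2.16 ± 1.05 FPKM and Mrpl23 at 2.19 ± 2.27 FPKM (SD, n = 9). Mrpl23, which sits at the exit of the peptide tunnel in bacteria, had no count in 2 control embryos and was the one member that did not pass the filter on low counts.

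Among small subunit names the highest were Mrps26 at 90.3 ± 31.3 FPKM, Mrps30 at 87.6 ± 34.0 FPKM, Mrps7 at 73.1 ± 15.8 FPKM, Mrps14 at 67.6 ± 15.3 FPKM and Mrps6 at 54.5 ± 27.5 FPKM (SD, n = 9). Mrps7 and Mrps14 belong to the head of the small subunit. The lowest were Mrps5 at 2.29 ± 2.11 FPKM, Mrps9 at 5.84 ± 3.18 FPKM and Mrps31 at 6.92 ± 4.87 FPKM (SD, n = 9). Mrps5 and Mrps9 have bacterial counterparts at the core of the subunit, so a low transcript level was not limited to proteins particular to mitochondria.

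Names do not always give the place of the protein. Mrps30 and Mrps18a are parts of the large subunit in structures of the mammalian mitoribosome, and Mrps36 is now assigned to the 2-oxoglutarate dehydrogenase complex. The paralogs Mrps18a, Mrps18b and Mrps18c stood at 33.6 ± 16.9, 42.9 ± 16.7 and 18.9 ± 8.05 FPKM in control embryos (SD, n = 9). Mrps36 stood at 12.1 ± 4.63 FPKM in the same embryos (SD, n = 9). All 4 were kept under their names, and none of them passed the test described further on.

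In cumulus cells the same genes had another order of levels. The median level over members was 25.1 FPKM in the summed cells, close to that of the embryos, but the Spearman rho between control embryos and summed cells was 0.417 over the 77 members, against 0.543 over the 12356 genes. It was 0.425 over small subunit names and 0.413 over large subunit names. The range ran from 2.00 FPKM for Mrps25 to 187.5 FPKM for Mrpl33. The upper quartile was 2.32 times the lower in the summed cells (2.35 times without cells 2, 10 and 11), against 11.2 times over all genes. Within single libraries this narrowing was not seen: the SD of log2(FPKM + 1) over the members was 1.44 to 1.73 in control embryos, 1.41 to 1.83 in HU embryos and 1.28 to 2.23 in single cells.

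**Figure D1:**
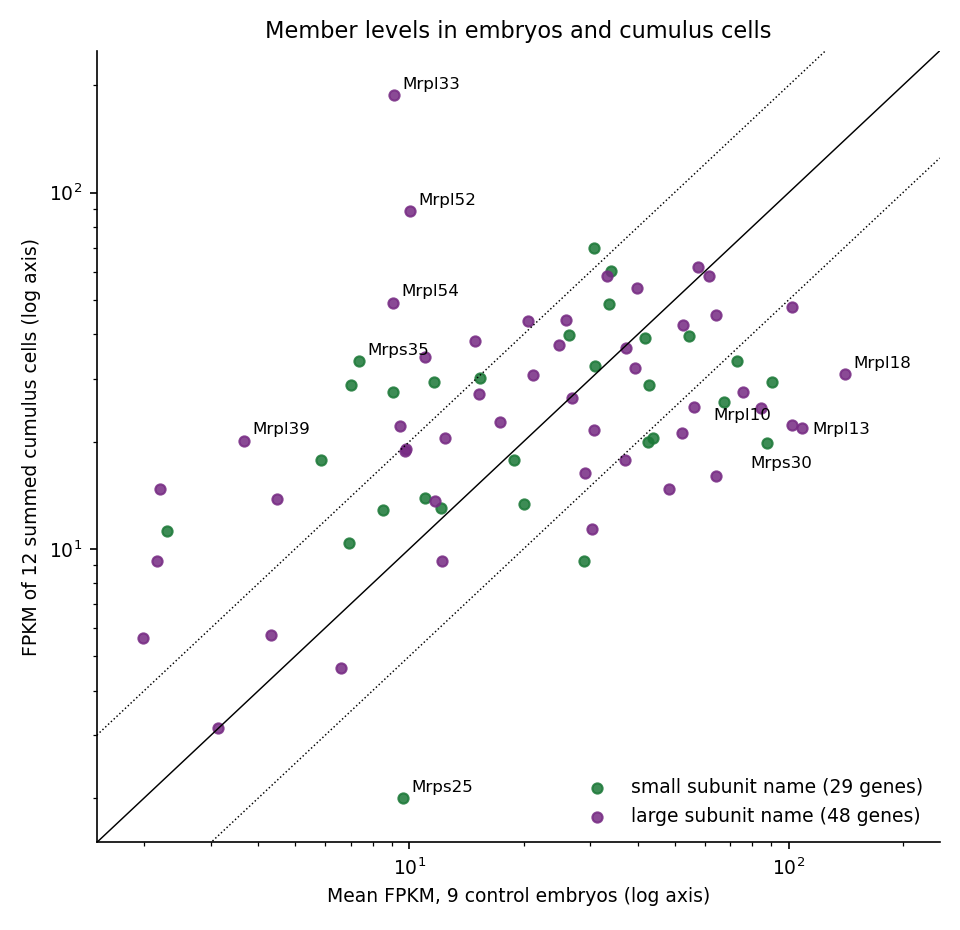
Each point is 1 of the 77 members, with the mean FPKM of 9 control embryos on the horizontal log axis and the FPKM of the 12 summed cumulus cells on the vertical log axis. The solid line marks equal values and the dotted lines a 2-fold difference; Mrpl33 at 187.5 FPKM lies far above the line and Mrps25 at 2.00 FPKM far under it.

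For each member the ratio of summed cumulus cells to the mean of control embryos was formed on CPM with 1 CPM added. By this measure 19 of 77 members were at least 2-fold higher in cumulus cells, 20 were at least 2-fold lower and 38 lay within 2-fold. Over all 19253 genes with a count, 13.7% were at least 2-fold higher and 42.5% at least 2-fold lower. The members' median log2 ratio was 0.10, against -0.65 over all genes. By subunit the split was 7 higher and 8 lower of 29 small subunit names and 12 higher and 12 lower of 48 large subunit names. These ratios compare shares of gene counts, not amounts per embryo or cell. The ERCC spike-ins took a median of 6.03% of all counts in control embryos and 44.3% in cumulus cells.

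How many members count as higher or lower depended on the scaling. With Rn45s and the mitochondrially encoded genes left out of the library totals, 39 members were at least 2-fold higher and 6 at least 2-fold lower, and the medians were 1.03 for members and -0.30 for all genes. Of all genes, 24.4% were then higher and 34.5% lower. Relative to the median ratio of all genes, 36 members were higher and 7 lower, against 22.3% and 30.5% of all genes. Without cumulus cells 2, 10 and 11 the counts were 22 higher and 16 lower, against 12.9% and 43.3% of all genes. Past 2-fold under all 3 scalings were 19 members on the higher side and 6 on the lower side. The latter were Mrpl13, Mrps25, Mrpl10, Mrpl18, Mrps30 and Mrpl45. Both scalings other than plain CPM raised the ratios. The 19 members past 2-fold on CPM therefore had to stay past it, and only the lower side could lose members. A scaling that multiplies every gene alike leaves the order of the CPM ratios among members as it is.

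Of the members past 2-fold on the CPM scale, nearly all that were abundant in embryos were lower in cumulus cells, and nearly all that were scarce were higher. Split at their median of 26.1 FPKM in HU embryos, which do not enter the ratio, 18 of the 38 members over that median were at least 2-fold lower in cumulus cells and 1 was at least 2-fold higher. Of the 39 at or under it, 2 were lower and 18 higher. A split in that direction was also present over all genes: at the same level, 68.4% of the 2658 genes over it were lower and 7.11% higher, and 38.4% of the 16595 genes at or under it were lower and 14.8% higher. Nothing particular to the members is read from this split. The median level of the first set was 46.0 FPKM in control embryos and 29.1 FPKM in cumulus cells, and that of the second 9.73 and 19.1 FPKM.

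The largest ratio belonged to Mrpl33, a short protein of the large subunit (chr5:31596935-31664384, plus strand, GRCm38). Its level was 0, 4.05 and 10.5 CPM in control embryos (lowest, median and highest of 9) and 0, 85.4 and 157.6 CPM in cumulus cells (lowest, median and highest of 12). The highest control embryo was below 11 of the 12 cells, and the cell without a count was cell 2. Summed over cells it reached 87.4 CPM (95% exact Poisson interval 83.7 to 91.2 CPM), 16.8-fold the control mean of 4.25 CPM on the CPM + 1 scale, or 4.07 on the log2 scale. HU embryos, with a mean of 6.79 CPM, lay with the controls.

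Mrpl52, a protein without a bacterial counterpart, stood at 0.332, 3.74 and 10.3 CPM in control embryos and at 7.12, 31.2 and 86.4 CPM in cumulus cells (lowest, median and highest). Only 1 cell fell within the range of the controls, and the log2 ratio was 2.87. Mrpl39 followed at 2.30, with 5.65 CPM as the control median and 28.7 CPM as the cell median. Mrpl54 and Mrps35 had log2 ratios of 2.24 and 2.06. For these 3, the number of cells above the highest control embryo was 9 of 12 each.

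On the other side stood genes that belong to the embryos' abundant members. Mrpl10, one of the stalk proteins, had 113.8, 178.8 and 228.0 CPM in control embryos and 1.42, 31.0 and 88.4 CPM in cumulus cells (lowest, median and highest), a log2 ratio of -2.17. Mrpl18 had 96.9, 128.2 and 182.4 CPM against 0, 31.3 and 85.1 CPM, a log2 ratio of -2.15. For both genes all 12 cells lay below the lowest control embryo. The same held for Mrps30, with a log2 ratio of -2.11. Mrpl13, with -2.25, had 11 of 12 cells below that mark.

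Mrps25, a small subunit protein particular to mitochondria, had 44.3, 54.7 and 78.2 CPM in control embryos and 0, 4.03 and 53.4 CPM in cumulus cells (lowest, median and highest). It had no count in 5 of the 12 cells, and 11 of 12 lay below the lowest control embryo. Its log2 ratio was -2.18. In GENCODE M21 the exons of Nr2c2, on the opposite strand, cover 69.8% of the exon bases of Mrps25 (chr6:92169525-92184033, minus strand). Smart-seq2 does not mark strand, so reads of that stretch cannot be told apart between the 2 genes.

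**Figure D2:**
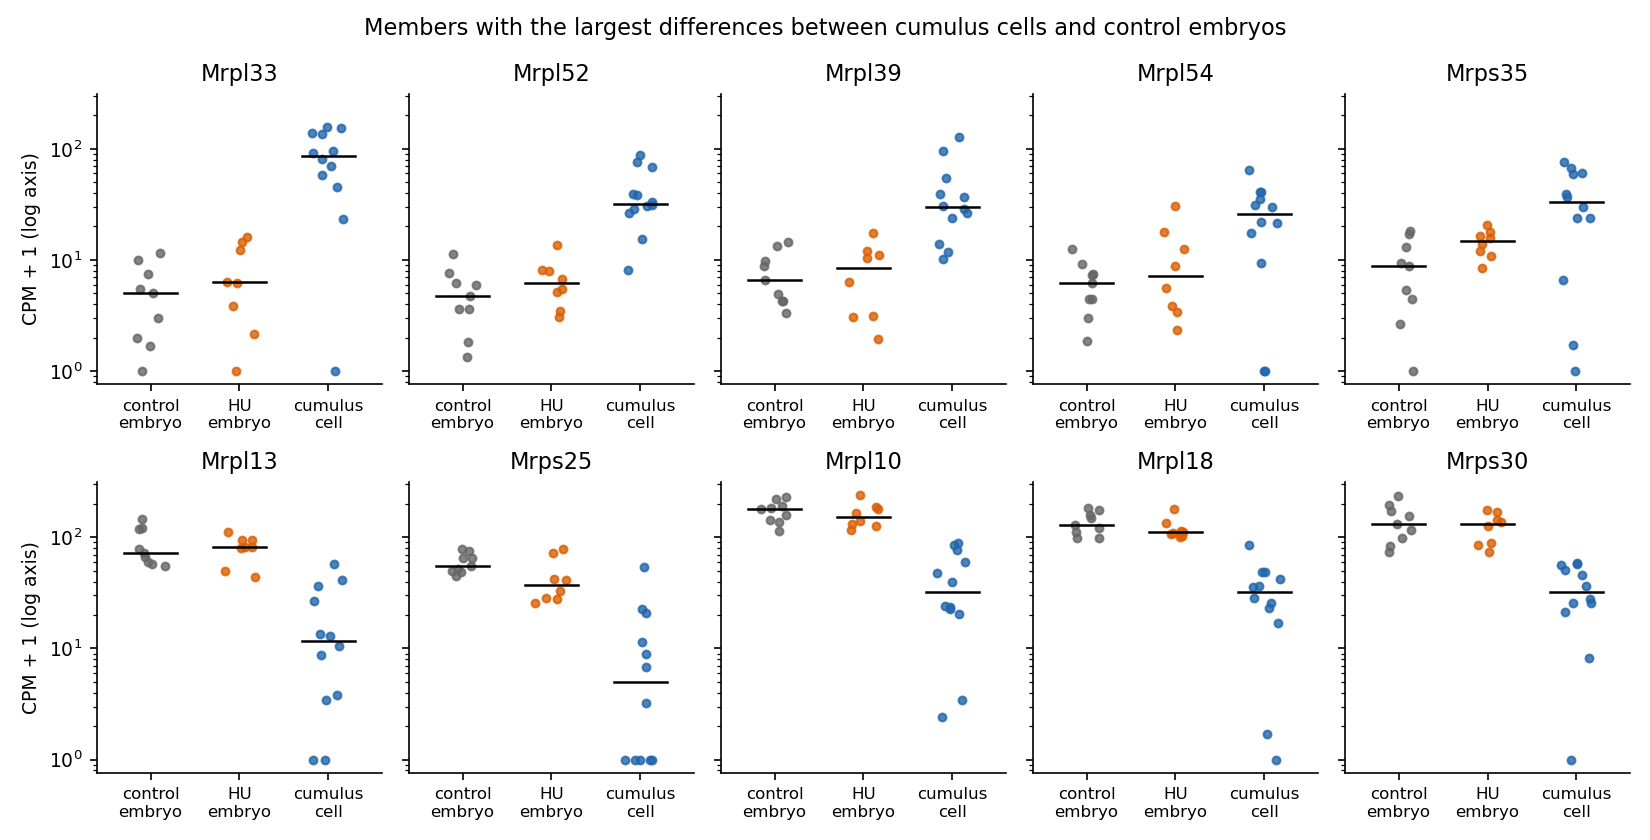
Each panel is a member, each point a library, and the bar the median of the group, with CPM + 1 on a log axis for 9 control embryos, 8 HU embryos and 12 cumulus cells. In the upper row (Mrpl33, Mrpl52, Mrpl39, Mrpl54, Mrps35) most cells lie above the embryos, and in the lower row (Mrpl13, Mrps25, Mrpl10, Mrpl18, Mrps30) nearly all cells lie below them.

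Bases upstream of the start of members with large differences each way are shown because these genes differ in opposite directions although their proteins enter the same particle. Each run is the 150 bases before a RefSeq transcription start (GRCm38.p6), written 5′ to 3′ on the strand of the gene. Capitals mark a match to CCGGAAG (bound by ETS factors) or GCGCATGC (bound by NRF1), on either strand. Mrpl33 and Mrpl52 were higher in cumulus cells, and Mrpl10 and Mrps25 were higher in embryos.
Mrpl33, chr5:31613801-31613950, plus strand: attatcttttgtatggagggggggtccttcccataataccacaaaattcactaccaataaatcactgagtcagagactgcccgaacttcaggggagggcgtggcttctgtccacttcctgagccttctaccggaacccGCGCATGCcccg
Mrpl52, chr14:54426759-54426908, plus strand: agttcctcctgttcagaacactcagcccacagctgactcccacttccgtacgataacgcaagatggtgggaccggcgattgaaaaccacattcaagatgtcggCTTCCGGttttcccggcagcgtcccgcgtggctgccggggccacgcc
Mrpl10, chr11:97041432-97041581, plus strand: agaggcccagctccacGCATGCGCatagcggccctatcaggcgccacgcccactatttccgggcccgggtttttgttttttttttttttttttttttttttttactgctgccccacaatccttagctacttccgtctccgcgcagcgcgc
Mrps25, chr6:92184024-92184173, minus strand: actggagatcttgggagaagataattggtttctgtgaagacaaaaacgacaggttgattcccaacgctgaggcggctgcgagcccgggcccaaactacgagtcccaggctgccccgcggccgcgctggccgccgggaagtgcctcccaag

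A match was present in at least 1 gene of each direction, and the Mrps25 stretch held none. Stretches of 150 bases were also searched for Mrpl39, Mrpl18 and Mrps30, which are not printed. Mrpl39, higher in cumulus cells, held 2 overlapping matches to the NRF1 letters. Mrpl18 and Mrps30, higher in embryos, held none. RefSeq windows of 250 bases before to 50 after the start were found for 68 of the 77 members (74 windows). CCGGAAG or its complement CTTCCGG was in 33.8% of the member windows, against 17.5% of windows of the genes tested in embryos and 8.86% of all 32851 windows. GCGCATGC or GCATGCGC was in 10.8% of the member windows, against 5.54% and 2.71%. AAGATGGC or GCCATCTT, bound by YY1, was in 16.2%, against 4.50% and 2.75%. The TATAAA or TTTATA box was in 6.76%, against 6.95% and 13.6%. These are shares of letters in a fixed window and say nothing of binding.

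The 2 embryo groups address whether the drug changed these transcripts after nuclear transfer. None of the 76 members that passed the filter on low counts changed at an adjusted p under 0.05 (edgeR quasi-likelihood test with Benjamini-Hochberg adjustment over 11476 genes), and the smallest adjusted p among them was 0.829. The share called over all genes was 0%. At an unadjusted p under 0.05 there were 3 of 76 members, all higher in HU embryos, against 5.85% of all genes in either direction and 3.81% in that direction. Other tools and scalings gave 0 to 5 members at that unadjusted level. No label gives the female or the day behind an embryo, so these p-values reflect no more than the variation among the embryos collected.

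Mrps28, a small subunit protein, had the smallest p of the members. Its level was 3.53, 4.92 and 9.46 CPM after TMM scaling in control embryos and 6.93, 10.5 and 23.3 CPM in HU embryos (lowest, median and highest). The ranges overlapped, although 5 of the 8 HU embryos exceeded every control. The means were 6.39 ± 2.45 (SD, n = 9) and 12.7 ± 5.97 TMM-scaled CPM (SD, n = 8). The fitted log2 change was 0.99 ± 0.38 (SE), with an edgeR p of 0.0166 before and 0.829 after adjustment.

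Mrpl51, a large subunit protein particular to mitochondria, stood at 43.4, 83.4 and 125.5 TMM-scaled CPM in control embryos and at 56.0, 117.9 and 177.1 TMM-scaled CPM in HU embryos. Here 4 of 8 HU embryos exceeded the highest control, and the log2 fold change was 0.57 ± 0.25 (SE, edgeR unadjusted p = 0.0308). Mrpl17, which lies near the exit of the peptide tunnel in bacteria, stood at 15.8, 22.2 and 59.3 TMM-scaled CPM in control embryos and at 24.2, 49.5 and 60.6 TMM-scaled CPM in HU embryos. All 8 HU embryos were above the control median but 1 was above the highest control, and the log2 fold change was 0.60 ± 0.28 (SE, edgeR unadjusted p = 0.0441). The next was Mrpl32, which is trimmed by the mitochondrial m-AAA protease before it joins the ribosome, with a log2 fold change of 0.52 ± 0.28 (SE).

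In the other direction the smallest p belonged to Mrpl34, with 12.7, 43.8 and 61.9 TMM-scaled CPM in control embryos and 16.7, 23.1 and 46.1 TMM-scaled CPM in HU embryos. The HU range lay inside the control range, and the log2 fold change was -0.63 ± 0.31 (SE, edgeR unadjusted p = 0.0537). Mrps25 stood at 43.4, 58.6 and 78.9 TMM-scaled CPM in control embryos and at 26.0, 36.6 and 80.9 TMM-scaled CPM in HU embryos. Of the 8 HU embryos, 6 were below the lowest control and 1 was above the highest, and the log2 fold change was -0.44 ± 0.25 (SE). Nr2c2, whose exons cover 69.8% of those of Mrps25, was at 215.5, 100.8 and 134.9 TMM-scaled CPM in HU embryos 4, 5 and 7, where Mrps25 was lowest. In HU embryos 2, 3 and 6, also below the lowest control for Mrps25, Nr2c2 was at 36.0, 44.5 and 35.8 TMM-scaled CPM. The part of this overlap in the Mrps25 values was not tested. Mrpl50 and Mrpl48 had log2 fold changes of -0.72 ± 0.47 and -0.37 ± 0.24 (SE).

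**Figure D3:**
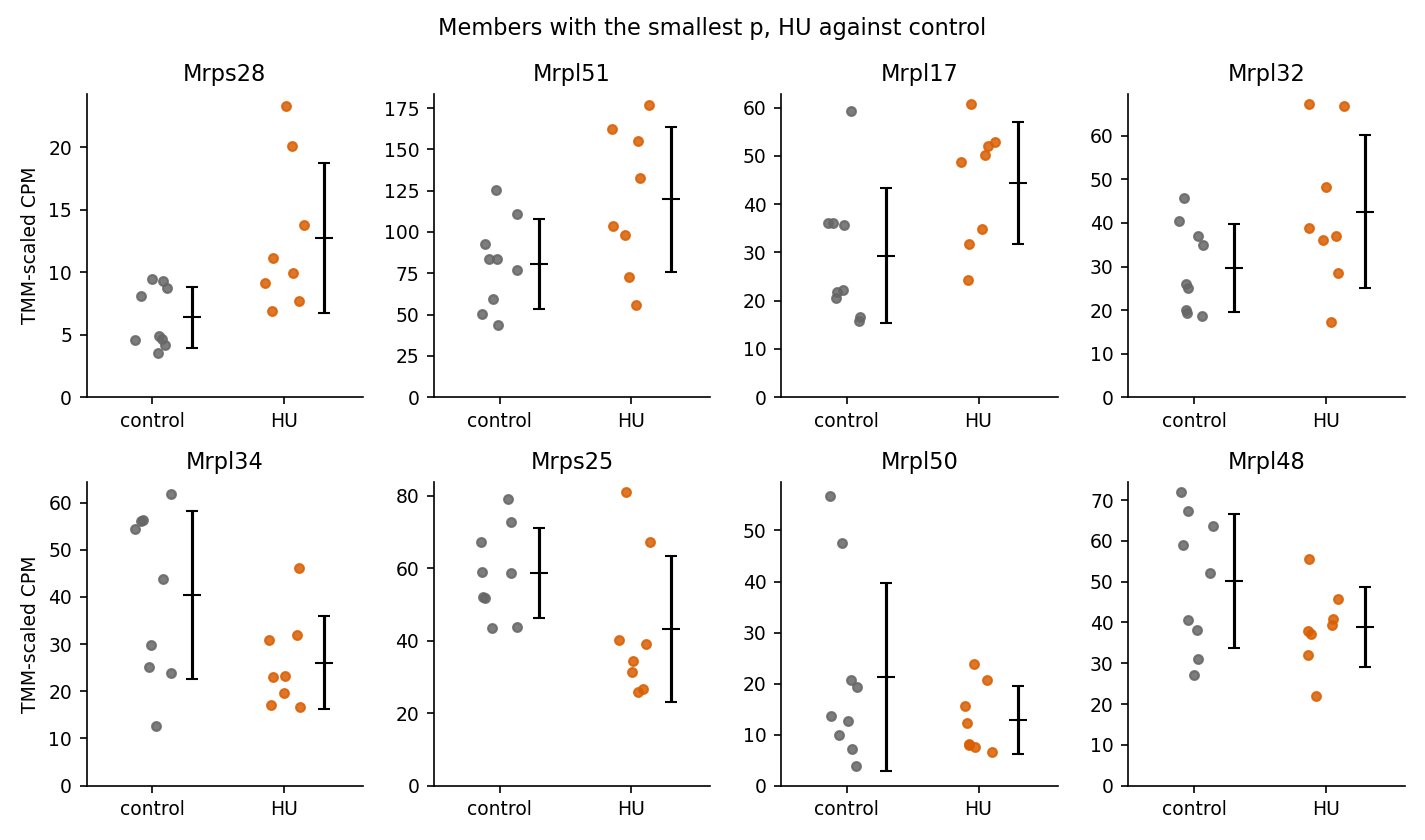
Each panel shows TMM-scaled CPM of a member in 9 control and 8 HU embryos (points), with the mean and SD beside them, on a linear axis from 0. The upper row holds the 4 members with the smallest p among those higher in HU and the lower row those lower; the groups overlap in every panel, and for Mrps25 6 of 8 HU embryos lie below the lowest control.

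Across the list, 48 of 76 members (63.2%) had a fitted fold change above 0, against 53.6% of all genes tested. That held for 17 of 29 small subunit names and 31 of 47 large subunit names. The median log2 fold change was 0.13 over members and 0.04 over all genes, and it was 0.14 for the small and 0.13 for the large subunit. The number above 0 was not stable: without HU embryo 7 it was 37 of 76, with a median of -0.01. With the replicate number as a block it was 38. Scaled to the ERCC spike-ins it was 62 of 76, where the median of all genes also moved, to 0.19, and 69.4% of all genes were above 0. Member genes are short, with a median of 1054 bases against 2950 over all genes. Among genes of 1000 bases or less, 60.0% of all genes and 21 of 30 members were above 0, among longer genes of up to 2000 bases 53.2% and 18 of 34, and among those over 2000 bases 53.2% and 9 of 12.

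**Figure D4:**
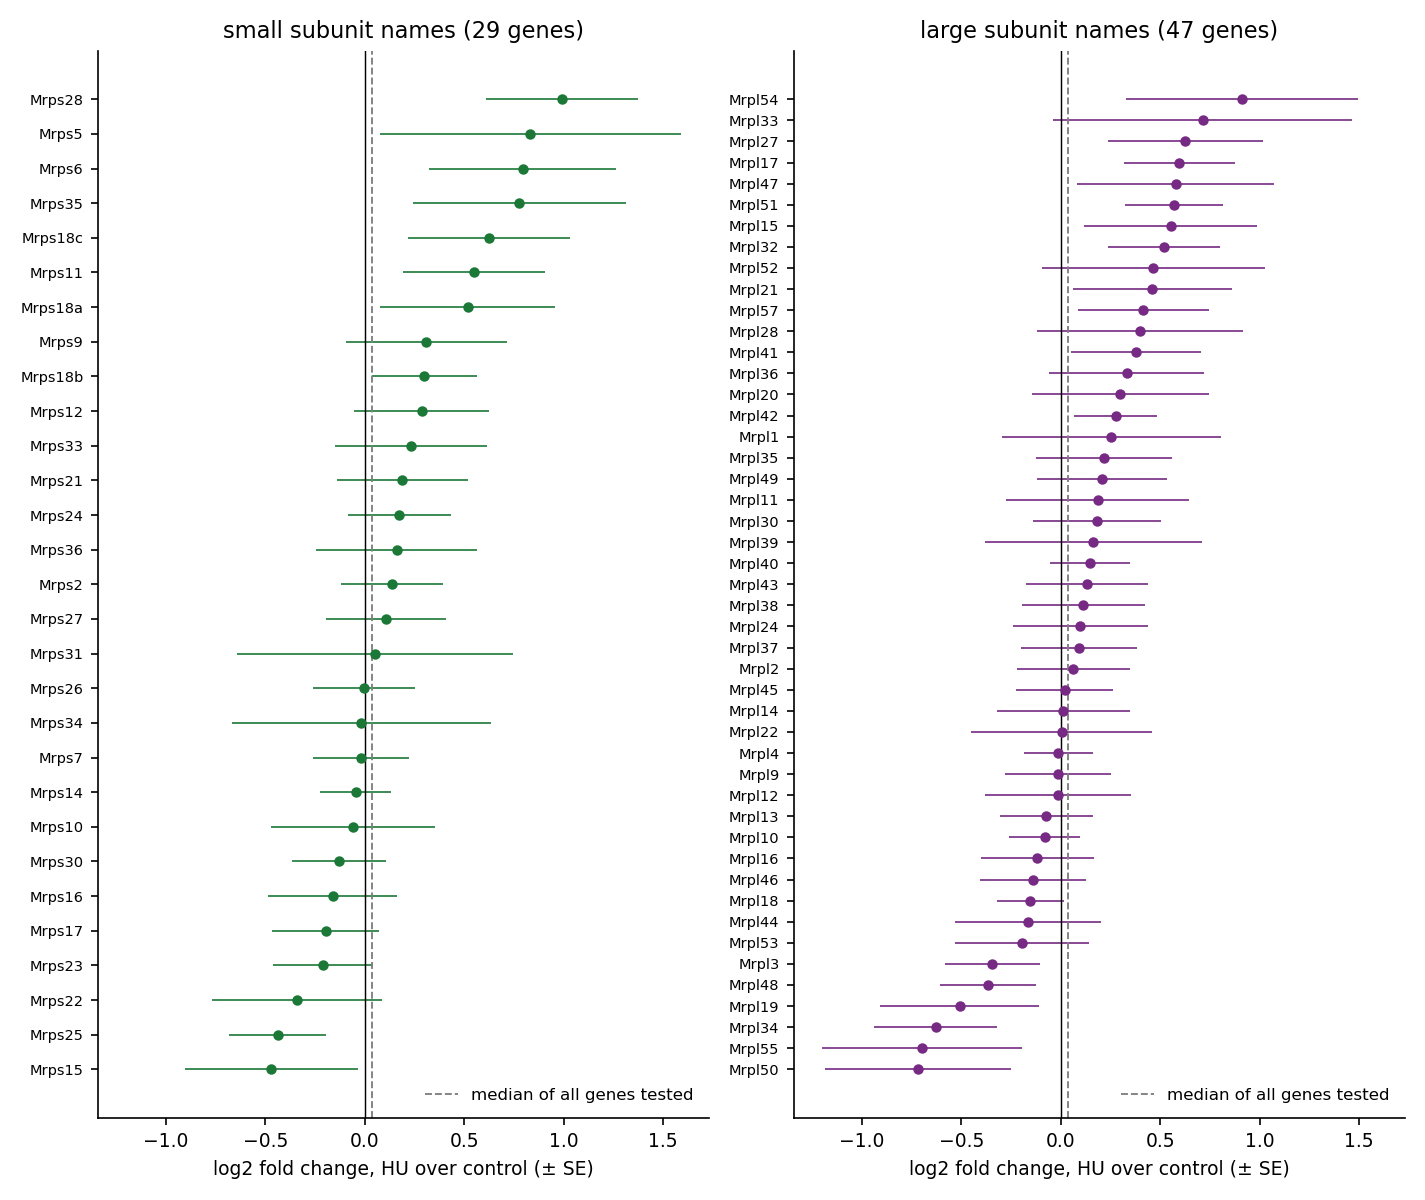
Points are fitted log2 fold changes of HU over control with their SE for the 29 small and the 47 large subunit names tested, ordered by value; the dashed line is the median of all genes tested, 0.04. The values run from -0.72 for Mrpl50 to 0.99 for Mrps28, on both sides of the dashed line.

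As a score per embryo, the mean log2 TMM-scaled CPM (1 CPM added) over the 76 members, the groups overlapped. Control embryos had 4.37, 4.66 and 4.94 and HU embryos 4.39, 4.59 and 5.15 (lowest, median and highest). HU embryos 5 and 7, at 5.07 and 5.15, were above every control, whereas 5 of 8 were below the control median. The mean was 4.63 ± 0.18 in controls (SD, n = 9) and 4.70 ± 0.28 in HU embryos (SD, n = 8), a difference of 0.08 ± 0.12 (SE). Without HU embryo 7 the difference was -0.0016.

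Taken by subunit, the difference in score was 0.08 ± 0.09 (SE) for small subunit names and 0.07 ± 0.14 (SE) for large subunit names. The small score minus the large score was -0.20 ± 0.19 in controls (SD, n = 9) and -0.20 ± 0.23 in HU embryos (SD, n = 8), a difference of 0.0037 ± 0.10 (SE). It varied between embryos more than between groups, from -0.53 in control embryo 3 to 0.02 in control embryo 8, and from -0.53 in HU embryo 4 to 0.18 in HU embryo 2. The SD of the score in HU embryos was 1.58 times that in controls for all members, 1.13 times for the small subunit and 1.67 times for the large. A larger SD of log2 CPM in HU embryos was found for 51 of 76 members (67.1%), against 62.3% of all genes, and without HU embryos 5 and 7 for 47 members (61.8%), against 57.8% of all genes.

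**Figure D5:**
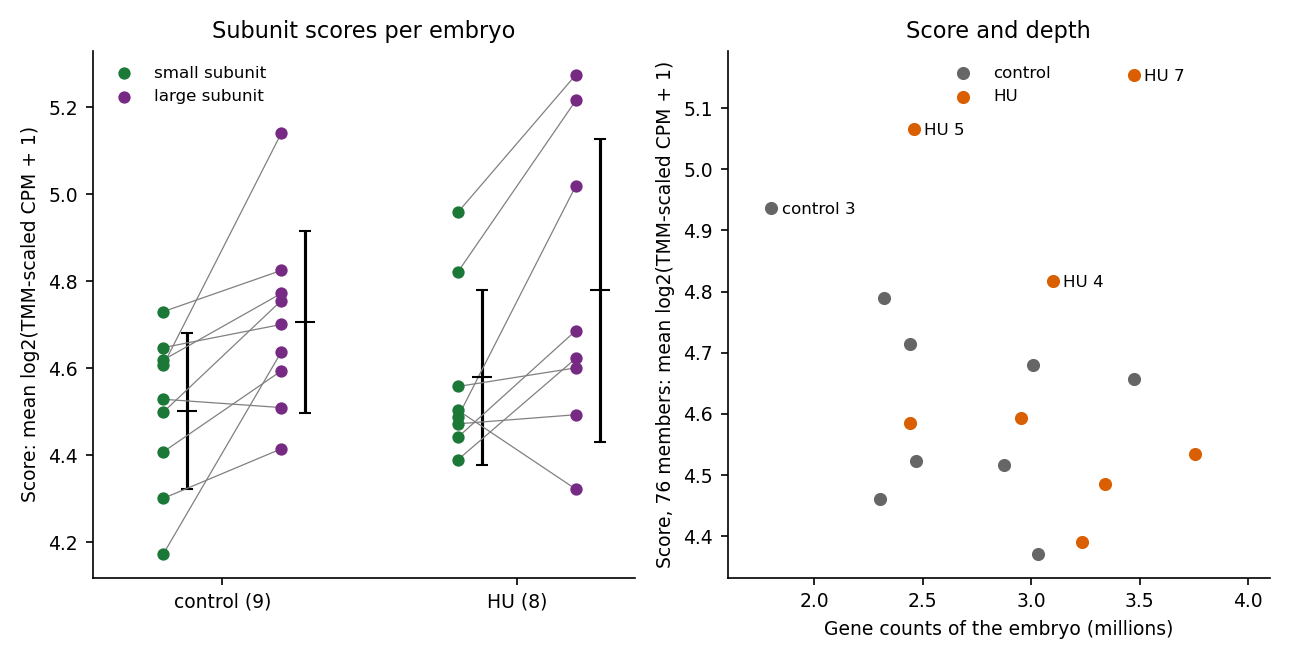
The left panel gives the small and large subunit score of each embryo (points joined by a line, mean and SD beside them) for 9 control and 8 HU embryos, and the right panel the score over 76 members against the gene counts of the embryo. Control embryo 3, HU embryo 5 and HU embryo 7 have the highest scores, at 4.94, 5.07 and 5.15.

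The 3 embryos with the highest scores differed in depth: control embryo 3 had the fewest gene counts of all embryos, 1801261, and HU embryo 7 had 3473565. All 3 had few genes with a count, 13875 in control embryo 3, 14293 in HU embryo 5 and 13892 in HU embryo 7. The group medians were 14513 in controls and 15010.5 in HU embryos. Their cumulus marker sums were 202.1, 129.7 and 161.2 CPM for control embryo 3 and HU embryos 5 and 7, all above their group medians, and the value of control embryo 3 was the highest of all 17 embryos. Their oocyte and embryo marker sums were 3500, 2573 and 3163 CPM, all below their group medians of 4259 CPM in controls and 3294 CPM in HU embryos. Their score over cytosolic ribosomal protein genes was also high, at 6.52, 6.51 and 6.76 against a control mean of 5.75. This did not hold in every related list described below. Over mitochondrial translation factors HU embryo 7 stood at 3.92, against a control mean of 4.02. Over genes of mitochondrial transcription control embryo 3 stood at 4.04, against 4.24. Their other scores in the related lists were above the control means. The part of either marker set, of depth and of the number of genes with a count in the members' score was not tested.

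Variation between control embryos was large for many members. The coefficient of variation of TMM-scaled CPM over 9 control embryos ran from 17.1% to 93.3%, with a median of 39.7% over members and 44.2% over all genes. Among members of 10 CPM or more, Mrpl4 (17.1%), Mrps21 (17.5%) and Mrpl40 (19.3%) varied least, and Mrpl50 (86.6%), Mrpl36 (82.7%) and Mrpl28 (70.8%) most. Taken in pairs, the members were only weakly correlated from embryo to embryo. A low mean over pairs does not exclude variation shared by the list: the members' score ran from 4.37 to 4.94 in controls and from 4.39 to 5.15 in HU embryos. With the group means taken out, the mean pairwise correlation over 17 embryos was 0.11 within the large subunit, 0.02 within the small subunit and 0.04 between them, against 0.00 over all gene pairs, a description over genes that share their libraries.

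Other genes of mitochondrial translation were followed in 5 further lists, and in none of them did a gene pass the adjusted threshold between HU and control embryos (edgeR). Of the 6 mitoribosomal proteins without an Mrp name, 5 had a fold change above 0. Dap3, a GTP-binding protein of the small subunit, went the other way, with 45.0 ± 9.55 TMM-scaled CPM in controls (SD, n = 9) and 32.7 ± 7.52 in HU embryos (SD, n = 8). Its log2 fold change was -0.46 ± 0.21 (SE, edgeR unadjusted p = 0.0436). Above 0 were 7 of 15 translation factors, 16 of 21 mitochondrial aminoacyl-tRNA synthetases, 13 of 21 assembly factors and 4 of 5 genes of mitochondrial transcription, against 53.6% of all genes tested. In 2 larger lists that share with the members a place in respiration or translation, 55 of 74 nuclear subunits of oxidative phosphorylation (74.3%) and 74 of 81 cytosolic ribosomal proteins (91.4%) were above 0. At an unadjusted p under 0.05 (edgeR) there were 9 higher and 1 lower in the former and 4 higher in the latter, and none passed after adjustment. As scores per embryo, HU minus control was 0.18 ± 0.11 (SE) for oxidative phosphorylation and 0.25 ± 0.26 (SE) for cytosolic ribosomal proteins. In HU embryo 7 these scores were 5.40 and 6.76, against control means of 4.94 and 5.75. Genes of a list share their embryos, so the counts above 0 are not independent observations. Lrpprc, which stabilises mitochondrial mRNAs, had a log2 fold change of -0.62 ± 0.29 (SE, edgeR unadjusted p = 0.0462), and Sars2, the mitochondrial seryl-tRNA synthetase, 0.94 ± 0.40 (SE, edgeR unadjusted p = 0.0288).

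Between cells and embryos one assembly gene differed widely. Nsun4, which methylates the small subunit rRNA and, with its partner Mterf4, takes part in joining the subunits, had 375.4 CPM in control embryos and 15.8 CPM in the summed cumulus cells, a log2 ratio of -4.49. Of 22 assembly genes, 4 were at least 2-fold higher and 8 at least 2-fold lower in cumulus cells, and of 22 synthetases 3 and 8, against 13.7% higher and 42.5% lower of all genes. The nuclear subunits of oxidative phosphorylation, most of which work beside the products of this ribosome, had 35 of 80 higher and 5 lower, and the cytosolic ribosomal proteins 68 of 84 higher and 5 lower. Median log2 ratios were 0.82 and 1.82 for those lists, 0.10 for the members and -0.65 for all genes, on the same CPM + 1 scale.

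The partners that the mitochondrial genome supplies were measured in the same libraries. Both mitochondrial rRNAs together took 1.468 ± 0.438% of gene counts in controls (SD, n = 9) and 1.498 ± 0.256% in HU embryos (SD, n = 8), with a median of 2.07% in cumulus cells. The 13 mitochondrial mRNAs took 2.40 ± 0.95% in controls (SD, n = 9), 1.93 ± 0.54% in HU embryos (SD, n = 8) and a median of 0.643% in cumulus cells. On this scale every cumulus cell lay below the lowest embryo for the mRNAs, with the highest cell at 0.819% and the lowest embryo at 1.07%. With Rn45s taken out of the totals the groups overlapped for the mRNAs. These then took 0 to 1.97% in cumulus cells, 1.33 to 5.54% in controls and 1.61 to 3.51% in HU embryos. Their medians were 1.38%, 2.98% and 2.52%. For the rRNAs every cell but cell 10, which had no count, then lay above every embryo. The lowest of those cells was cell 11 at 3.91%, and the highest embryo was control embryo 9 at 2.89%.

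Overlap with other genes limits some members. In GENCODE M21 the exons of 32 of the 77 members share bases with another gene, 8 on the same strand and 27 on the opposite strand, and how such reads were assigned is not given in the sources used here. Apart from Mrps25, the largest shares were in Mrpl53, with 88.0% of its exon bases also in Gm42688, and in Mrps34, with 63.4% in Mapk8ip3. Both were at least 2-fold higher in cumulus cells, at log2 ratios of 1.03 and 1.88. Mrps11 and Mrpl46, a small and a large subunit gene arranged head to head, share 173 exon bases on opposite strands, and both were at least 2-fold lower in cumulus cells, at -1.06 and -1.26.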

How the data were processed

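Single embryos and single cells were profiled by Smart-seq2, per the labels' protocols. The authors deposited raw counts per gene (24540 rows, of which 92 are ERCC spike-ins) and FPKM values for those genes. The tools named, per the submitters' processing notes, are STAR 2.7.3a, R 4.0.2 and FastQC, with mm10 as the build. Which counter, annotation and strand setting the authors chose is not given in the sources used here, so overlapping genes cannot be separated. The deposited FPKM values equal the counts divided by library total and gene length for 18588 genes checked (tolerance 0.001). Library sizes and tests exclude the ERCC rows.

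HU and control embryos were compared with edgeR 4.0.16 in R 4.3.3 (TMM, filterByExpr, quasi-likelihood F test, no covariate, 17 embryos, 11476 genes, Benjamini-Hochberg threshold 0.05), and each SE was derived from the F statistic. On simulated counts for 8 against 9 embryos, the edgeR procedure recovered 24% of 2-fold and 80% of 4-fold changes. Most 2-fold changes of a member, some 4-fold changes and smaller ones could therefore be missed. Cumulus counts were summed and compared with the control mean on CPM + 1, with no test and an exact Poisson interval at 95%. Scores are means of log2(TMM-scaled CPM + 1). Alternatives included DESeq2 1.42.0, limma-voom (limma 3.58.1), other scalings, no filter, a replicate block and leaving out each library; leaving out cumulus cells 2, 10 and 11 together was chosen after seeing the data. Positions came from GENCODE M21 and promoter windows from RefSeq (GRCm38.p6).

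Members and lists were chosen with earlier results of these data known. Named members were the 5 highest and 3 lowest by control FPKM in each subunit, the 4 with the smallest p in each direction, the 5 with the largest cumulus ratio in each direction (10 CPM or more where higher), the 3 with the largest and smallest coefficient of variation, the Mrps18 paralogs, Mrps30 and Mrps36. In the related lists, the 2 with the smallest p were eligible. Nsun4 was also singled out for its ratio, and Mrpl45, Mrpl53, Mrps34, Mrps11 and Mrpl46 were named after their values were seen.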

Additional observations from a re-analysis of the deposited data

Results flagged for a closer look

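In 5 of 82 groups of member values examined, 1 embryo lay far from the others by Dixon's criterion, of which 2 were in controls and 3 in HU embryos. Chance alone sets about 1 in 20 groups apart. In HU embryo 4, Mrps14 reached 208.2 TMM-scaled CPM (the next HU embryo had 138.6) and Mrps6 reached 233.2 TMM-scaled CPM (next 91.6). Slc5a3, which shares 159 exon bases with Mrps6, was at 60.6 TMM-scaled CPM in that embryo, inside the range of the others. Gm49711 shares more exon bases with Mrps6, 305 on the same strand, and its values are not given here. The part of overlap in the Mrps6 value was not tested. Mrpl28 reached 180.5 TMM-scaled CPM in HU embryo 7 (next 67.9). Among controls, Mrpl12 reached 205.0 TMM-scaled CPM in control embryo 3 (next 113.0), and Mrpl17 reached 59.3 TMM-scaled CPM in control embryo 4 (next 36.2). Without control embryo 4 the Mrpl17 log2 fold change was 0.78. No member passed the adjusted threshold in edgeR when any of these 4 embryos was left out.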

How the results depend on the processing

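Between HU and control embryos no member passed under any of the 26 alternatives run. Over all genes, edgeR called 0, with 671 at an unadjusted p under 0.05. DESeq2 called 3 genes, none of them a member, and leaving out a library gave 0 to 1 (the 1 without HU embryo 8). The fold changes of the 8 members named for their p kept their sign throughout, with Mrps28 between 0.81 and 1.15 and Mrpl17 between 0.51 and 0.78. The difference in the score of all members was -0.00164 to 0.12 when a library was left out, negative without HU embryo 7, and up to 0.20 with ERCC scaling. For cumulus cells against control embryos, the members at least 2-fold higher numbered 39 without Rn45s and mitochondrial genes, 36 relative to the median of all genes and 6 at a 4-fold threshold. The members lower numbered 6, 7 and 5 under the same settings. Of all genes, 24.4%, 22.3% and 6.12% were higher and 34.5%, 30.5% and 25.2% lower under these settings. Leaving out 1 cell at a time gave 18 to 21 members higher and 18 to 20 lower. The shares of all genes were then 13.2 to 14.4% and 42.4 to 43.0%. The 10 members named for their ratio kept their direction in all alternatives. With a replicate block, 38 members had a fold change above 0 and the score difference was 0.08. No label says whether the replicate numbers pair the embryos. Same-numbered embryos correlated at -0.10 to 0.19, and 1 of 8 pairs exceeded 0.1. Of the 8 HU embryos, 1 correlated best with its own number. Correlations of this kind cannot exclude a shared day or female. Depth limits low members: 3 counts equal 0.74 to 9.46 CPM in single cells.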
